A study of Mus musculus with 2 samples.

Results

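Molecular chaperones of the heat shock families were examined in the left ventricle of the mouse heart, in 1 library labelled wildtype and 1 library labelled Lamp2 knockout. Members were the rows of the deposited expression table whose gene symbol begins with Hspa, Hspb, Dnaja, Dnajb, Dnajc, Cct or Bag followed by a digit, or with Hsp90a, Hsph1, Hspd1 or Hspe1. The endoplasmic reticulum chaperone gene Hspa5, the constitutive Hsp70 gene Hspa8 and the J-protein gene Dnajb9 were left out. This gave 83 of the 31920 rows. The rule reads symbols and no measured value. The members and the gene lists used below were still chosen with earlier results of these data known. Although the set was named for the cytosol, the symbols also bring in chaperones of mitochondria (Hspd1, Hspe1, Hspa9) and of the endoplasmic reticulum (Hspa13, Dnajb11, Dnajc3).

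Both libraries came from male mice of the 129-SvEv strain at 10 weeks of age, as polyadenylated RNA. They differed in the genotype label, wildtype or Lamp2 knockout. LAMP2 is a membrane protein of lysosomes, and the title of the series names cardiomyopathy and impaired autophagy. The labels do not describe the allele. Levels are given as reads and as reads per 1000000 reads assigned to genes (RPM), and the comparison asked how the chaperone transcripts differed between the genotypes as labelled. With 1 library per group there is no replicate check, no test and no SD, and every interval is an exact 95% interval of counting error only.

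Chaperones hold unfolded proteins and help them fold. Small heat shock proteins bind unfolding proteins without using ATP and keep them from aggregating. Hsp70 proteins bind and release such proteins in an ATP cycle that J-domain proteins (DnaJ) start and that exchange factors of the Hsp110 and BAG families complete. Hsp90 acts later on selected clients, and the ring-shaped CCT complex folds actin and tubulin. Heart muscle is rich in small heat shock proteins, which protect the contractile filaments, and BAG3 links HSPB8 and Hsp70 to the disposal of damaged filament proteins by autophagy.

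The libraries held 8410593 reads (wildtype) and 8773820 reads (Lamp2 knockout). Lamp2 itself had 990 and 986 reads (118 and 112 RPM), a ratio of 0.955 (0.873 to 1.04), so its transcript level does not bear out the genotype label, and the second library is called the knockout-labelled library below. Mitochondrial genome rows took 26.5% of wildtype reads against 16.2% of those of the knockout-labelled library, which moves the RPM of all other genes. Cardiomyocyte markers were abundant in both libraries at a summed 46494 and 44490.4 RPM over 6 genes, and atrial markers were near absent at 4.99 and 1.94 RPM over 3 genes. Macrophage markers summed to 124 and 262 RPM, with all 5 genes in the table higher in the knockout-labelled library and none at 0. The part of these differences in the results below was not tested.

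Of the 83 members, 67 reached 5 RPM in at least one library and were taken as measured. The 16 others were low or absent. Of these, 9 had 0 reads in both libraries, which allows up to 3 reads, or 0.357 RPM (wildtype) and 0.342 RPM (knockout-labelled). They were Hspb9, Dnajb7, Dnajb8, Dnajb13, Dnajc5b, Dnajc5g, Dnajc6, Dnajc22 and Cct8l1. Just inside the threshold stood Dnajb14 at 4.76 and 5.24 RPM, and just outside it Hspa12a at 3.57 and 2.85 RPM. Of the unmeasured rows, the small heat shock gene Hspb3 differed most, with 22 reads (2.62 RPM) in the wildtype and 4 reads (0.456 RPM) in the knockout-labelled library, a ratio of 0.174 (0.0437 to 0.513).

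The stress-inducible small heat shock gene Hspb1 was the only measured member at least 2-fold apart between the libraries, and it was higher in the knockout-labelled library. A gene was called by log2 of the RPM ratio after adding 1 RPM to each value, and ratios printed are without that addition. The share called higher was 1 of 67 members (1.49%) against 3.35% of all 10209 measured genes, and the share called lower was 0 of 67 against 2.37%. At a 1.5-fold threshold, 5 members were higher (7.46%, against 12.8% of all measured genes). They were Hspb1, Hspb11, Hsph1, Dnajb6 and Dnajc15. The 2 members lower by that threshold (2.99%, against 7.30%) were Hspa12b and Hspa2. In each of these 4 counts the share among the members was below that of all measured genes. The counts are of 5 genes or fewer, and the difference in shares was not tested.

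Small differences above 0 were common among the members. A log2 ratio above 0 was seen in 49 of 67 (73.1%, against 61.2% of all measured genes), and the median was 0.19 against 0.11. These shares depend on the scaling. After division by the median ratio, a log2 shift of 0.12, 61.2% of members and 49.99% of all measured genes lay above 0. A further scaling used a reduced total, which leaves out mitochondrial rows and the top 10 genes by level. It shifted log2 ratios by 0.20 and gave shares of 49.3% and 42.9%. The median of the members was then −0.0048, against −0.075 for all measured genes. Counting intervals shift too: 33 of 67 lay wholly above 1 and 4 below as deposited, 23 and 13 after division by the median ratio, and 18 and 18 on the reduced total. As deposited, the intervals of 3570 of all 10209 measured genes lay wholly above 1 and those of 1713 below. Under the rescalings such counts were made for the members only. Where an interval is said to include 1 or to lie on a side of it, the deposited scale is meant unless another is named. Of all genes called at 2-fold, 58.6% were higher as deposited and 44.8% and 36.4% under these 2 scalings. The members together took 0.995% of reads in the wildtype and 1.28% in the knockout-labelled library, and Hspb7 alone supplied 41.7% (41.3 to 42.0) and 46.4% (46.1 to 46.7) of those reads.

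**Figure D1:**
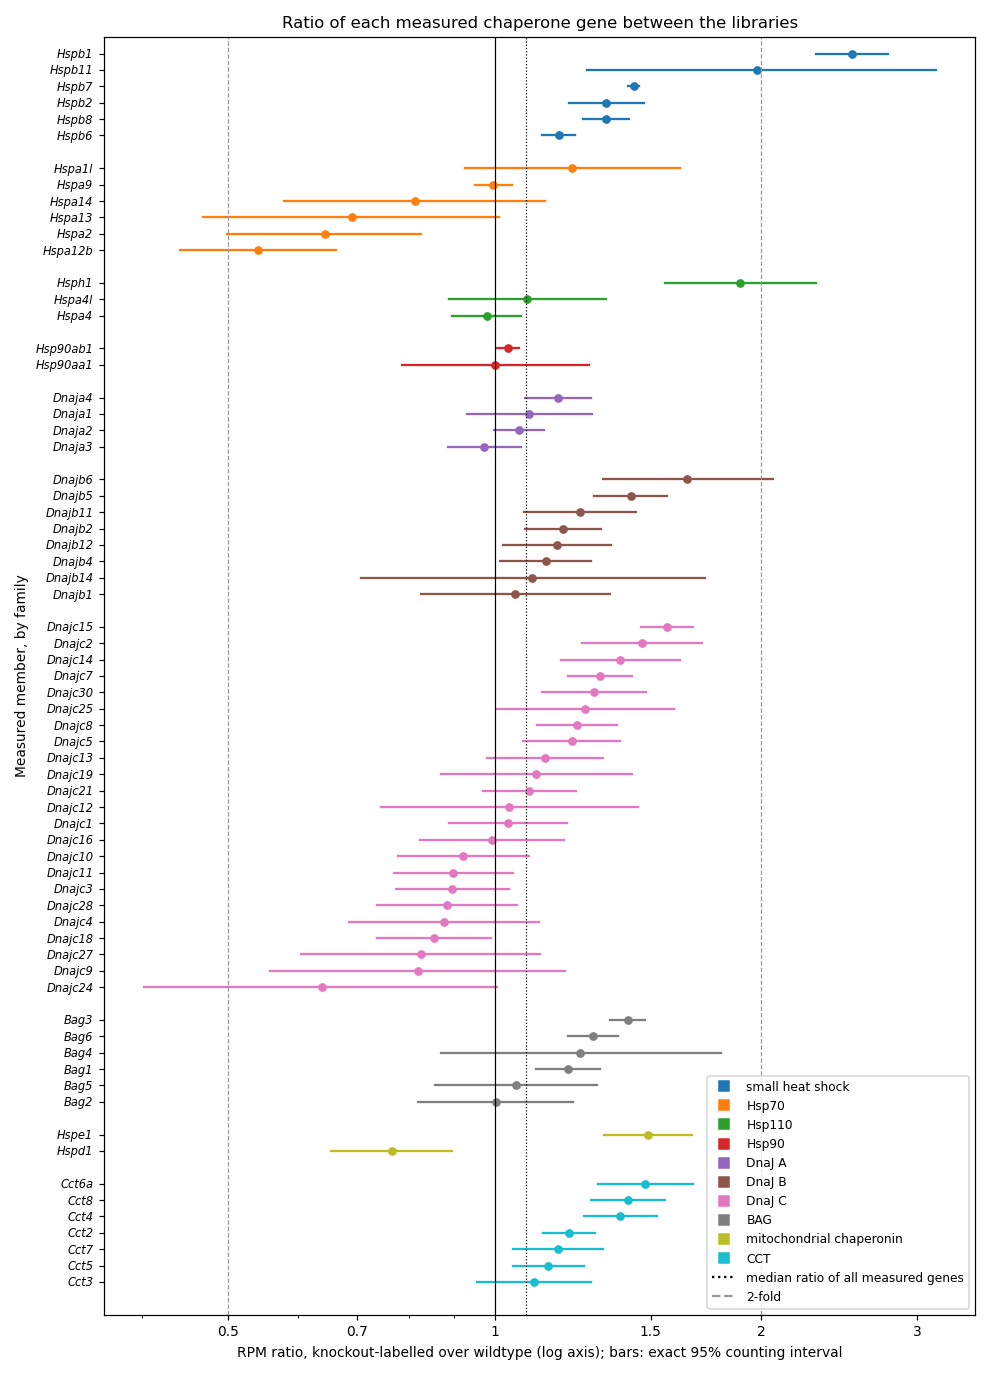
RPM ratio of the knockout-labelled over the wildtype library (log axis) for the 67 measured members, grouped by family; points are ratios, bars exact 95% counting intervals, the dotted line the median ratio of all measured genes and the dashed lines 2-fold. Hspb1 at 2.53 is the point farthest right and Hspa12b at 0.541 the point farthest left, and on this deposited scale all BAG and CCT points lie at or to the right of 1, against 4 of 6 and 6 of 7 on the reduced total.

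Heat-inducible genes were examined first, since heat shock factor 1 (Hsf1) drives many members from a promoter motif called the heat shock element. That element is a run of GAA units in alternating orientation. In RefSeq promoter windows of the GRCm38.p6 build (250 bases before to 50 after a start), a match of 3 units was searched as GAA, any 2 bases, TTC, any 2 bases, GAA, or as TTC, any 2 bases, GAA, any 2 bases, TTC. These forms are each other's reverse complement and so cover both strands. They were found in 6 of 88 windows of members (6.82%) against 0.603% of all 32851 windows. These 6 windows overlap and hold 3 distinct stretches of matches, since Dnajb6 and Hsph1 each have overlapping windows and Hspd1 and Hspe1 share a stretch. A symbol match gave windows for 68 of the 83 members. A shorter match of 2 units, GAA and TTC in either order with any 2 bases between, reads the same on both strands and lies inside every longer match. It was found in 23 of 88 windows (26.1%) against 15.1%. A match describes letters in a window and does not show binding. The 4 genes with the longer match were Hspd1, Hspe1, Dnajb6 and Hsph1, and Hspb1 held the shorter match at 2 places. The stretches that hold these matches are printed below from 5′ to 3′ on the strand of the named gene, with the matched letters in capitals. They are shown because they hold the longer match, or, for Hspb1, because it was the one measured member past 2-fold. Hspe1 lies at chr1:55088018-55088147 on the plus strand, between the divergent starts of Hspe1 and Hspd1, and its match is the one that the Hspd1 window reads from the other strand. Dnajb6 lies at chr5:29735818-29735897 (plus), Hsph1 at chr5:149636280-149636308 (minus, just after the start) and Hspb1 at chr5:135887782-135887849 (plus).
Hspe1 and Hspd1: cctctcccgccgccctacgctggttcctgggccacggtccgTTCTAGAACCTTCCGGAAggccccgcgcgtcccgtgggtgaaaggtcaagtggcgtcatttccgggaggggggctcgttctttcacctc
Dnajb6: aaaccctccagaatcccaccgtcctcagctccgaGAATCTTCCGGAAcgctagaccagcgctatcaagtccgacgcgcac
Hsph1: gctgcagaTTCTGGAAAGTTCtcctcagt
Hspb1: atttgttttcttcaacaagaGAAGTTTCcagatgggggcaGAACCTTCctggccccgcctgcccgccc

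The genes carrying the longer match did not share a direction. Hsph1 had a ratio of 1.89, Dnajb6 of 1.65 and Hspe1 of 1.49, all above 1, whereas Hspd1, which shares its element with Hspe1, had a ratio of 0.765. In Hspb1, the shorter matches lie from 117 to 110 and from 97 to 90 bases before the start.

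The classical heat-induced Hsp70 genes Hspa1a and Hspa1b were near the floor in both libraries. Hspa1a had 12 reads (1.43 RPM) in the wildtype against 24 (2.74 RPM), a ratio of 1.92 (0.922 to 4.21). Hspa1b had 7 and 10 reads. Both intervals include 1, so no difference was detectable at this depth. These genes are near copies of each other: 61.0% of 50-base windows of the Hspa1a mRNA, taken every 10 bases, also occur in a transcript of another annotated gene, and 62.7% of those of Hspa1b. How reads that match several places were counted is not stated, so the level of such genes may be understated or overstated.

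Of 21 genes in a heat-inducible list, 20 were in the table and 18 measured. Hspb1 was the one at least 2-fold higher (5.56%, against 3.35% of all measured genes). By 1.5-fold 2 were higher, Hspb1 and Hsph1 (11.1%, against 12.8%), and none was lower by either threshold (against 2.37% and 7.30%). The median log2 ratio of the list was 0.16, against 0.11, and 14 of 18 lay above 0 (77.8%, against 61.2%). Most of these genes are members reported here. The 7 measured genes of the list outside the members had a median of 0.00027, with 4 above 0. The share above 0 also depends on the scaling. On the reduced total, Dnajb4, Dnaja1, Hspa4l, Dnajb1, Hsp90aa1 and Hmox1 fell to ratios from 0.873 to 0.997. The others of the 14 stayed above 1, and 42.9% of all measured genes lay above 0. Not all strongly inducible genes stood high. The J-protein gene Dnajb1 was at 15.5 and 16.3 RPM and Hsp90aa1 at 16.05 and 16.07 RPM, both with intervals that include 1. Hsf1, which encodes the regulator itself, was at 25.6 and 32.5 RPM, a ratio of 1.27 (1.06 to 1.52). Under the rescalings its ratio was 1.11 to 1.17. Each rescaling divides by a factor of 1.08 to 1.15, larger than the lower bound, so the interval then includes 1.

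**Figure D2:**
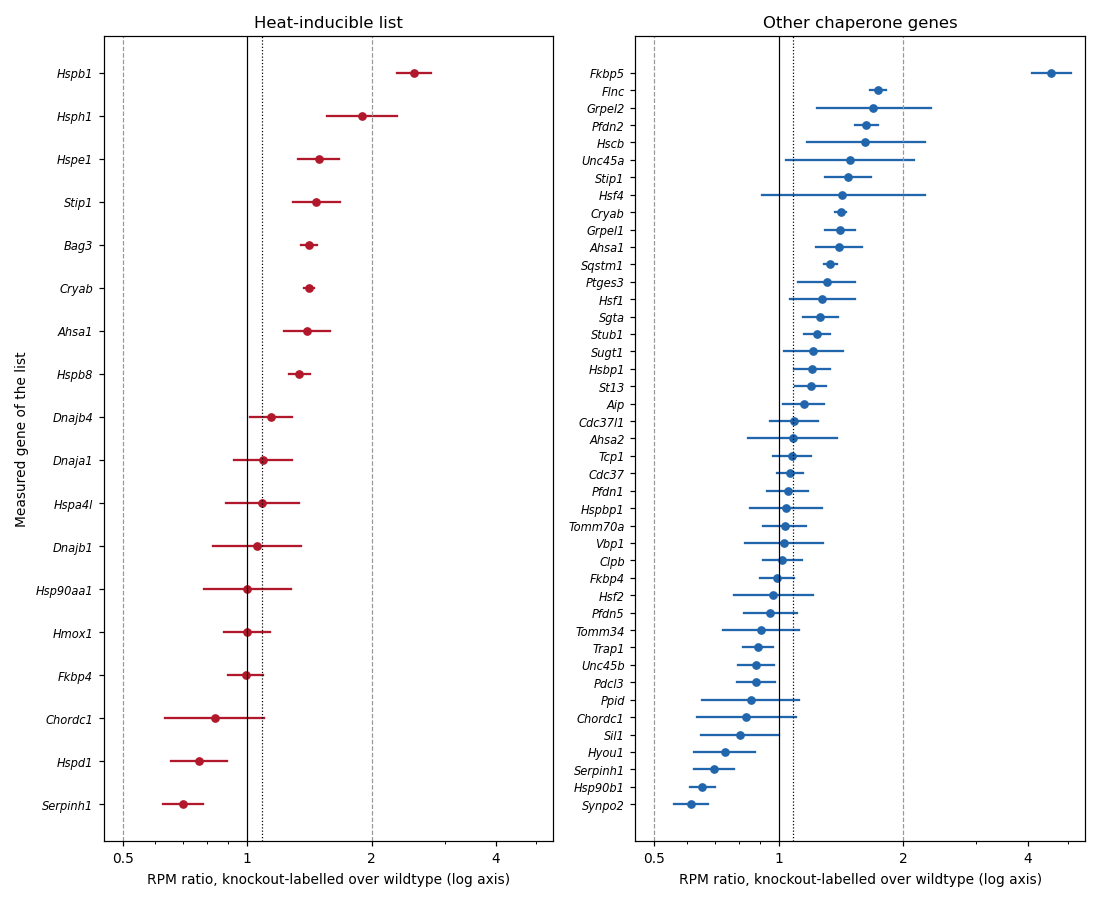
RPM ratio (log axis) of the 18 measured heat-inducible genes, left, and of 43 measured other chaperone genes, right; points are ratios, bars exact 95% counting intervals, the dotted line the median ratio of all measured genes and the dashed lines 2-fold. Hspb1, at 2.53, passes 2-fold on the left and Fkbp5, at 4.55, on the right.

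Small heat shock genes were the most abundant family by summed RPM and the one with the highest median ratio. All 6 measured members were higher in the knockout-labelled library under each of the 4 scalings, with a median log2 ratio of 0.47 on the deposited scale and 0.27 to 0.35 under the rescalings. Summed over the family, the levels were 4981 and 7083 RPM. Hspb7 alone gave 4144 and 5946 RPM of these, and the rank by sum rests on that gene. The Hsp90 family summed to 1109 and 1147 RPM, and DnaJ C to 963 and 1151 RPM.

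Hspb7, which encodes a heart and muscle protein that binds actin filaments and filamin C, had 34850 wildtype reads against 52170 in the knockout-labelled library. These are 4144 and 5946 RPM, a ratio of 1.44 (1.42 to 1.45), and 1.32 (1.31 to 1.34) after division by the median ratio. Per kilobase of its principal mRNA it stood at 1496 and 2147 RPM, above every other member in both libraries. The gene lies on chr4:141420779-141425310 (mm10, plus strand). In bulk tissue, more cells of a type and more RNA per cell cannot be told apart.

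Hspb1, the stress-inducible member that binds actin and unfolding proteins, had 622 reads (74.0 RPM) in the wildtype and 1642 (187 RPM) in the knockout-labelled library. The ratio was 2.53 (2.31 to 2.78), and 2.21 to 2.33 under the rescalings, so its call held under each. By level per kilobase it ranked 10 among the members with a gene model in the wildtype (81.9 RPM per kilobase) and 4 in the other library (207). The gene lies on chr5:135887919-135889563 (plus strand). Reads of Hspb1 relative to Hspb7, which do not depend on the scaling, gave a ratio of ratios of 1.76 (1.61 to 1.94). Of the windows of its mRNA, 51.7% also occur in other annotated genes, most often in the pseudogene Hsp25-ps1, and the treatment of such reads is not stated.

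The other measured muscle members had ratios closer to 1 than Hspb7 and Hspb1. Hspb6, the small heat shock gene whose product is phosphorylated in β-adrenergic signalling, stood at 452 and 535 RPM, a ratio of 1.18 (1.13 to 1.23). Hspb8, the partner of BAG3, stood at 221 and 296 RPM, a ratio of 1.34 (1.26 to 1.42). Hspb2 had 704 and 982 reads, a ratio of 1.34 (1.21 to 1.48). It lies head to head with Cryab, the gene of αB-crystallin, and 30.2% of its exonic bases lie under Cryab exons on the other strand. No source used here says whether strand was used in counting, so in that stretch reads of the pair cannot be told apart.

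Cryab is itself a small heat shock gene but its symbol falls outside the rule. It stood at 855 and 1206 RPM, a ratio of 1.41 (1.37 to 1.45), between Hspb2 and Hspb7. Hspb11, named with the family but known as a part of intraflagellar transport, had 31 and 64 reads, a ratio of 1.98 (1.27 to 3.14). Its value rests on the fewest reads of the 6.

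**Figure D3:**
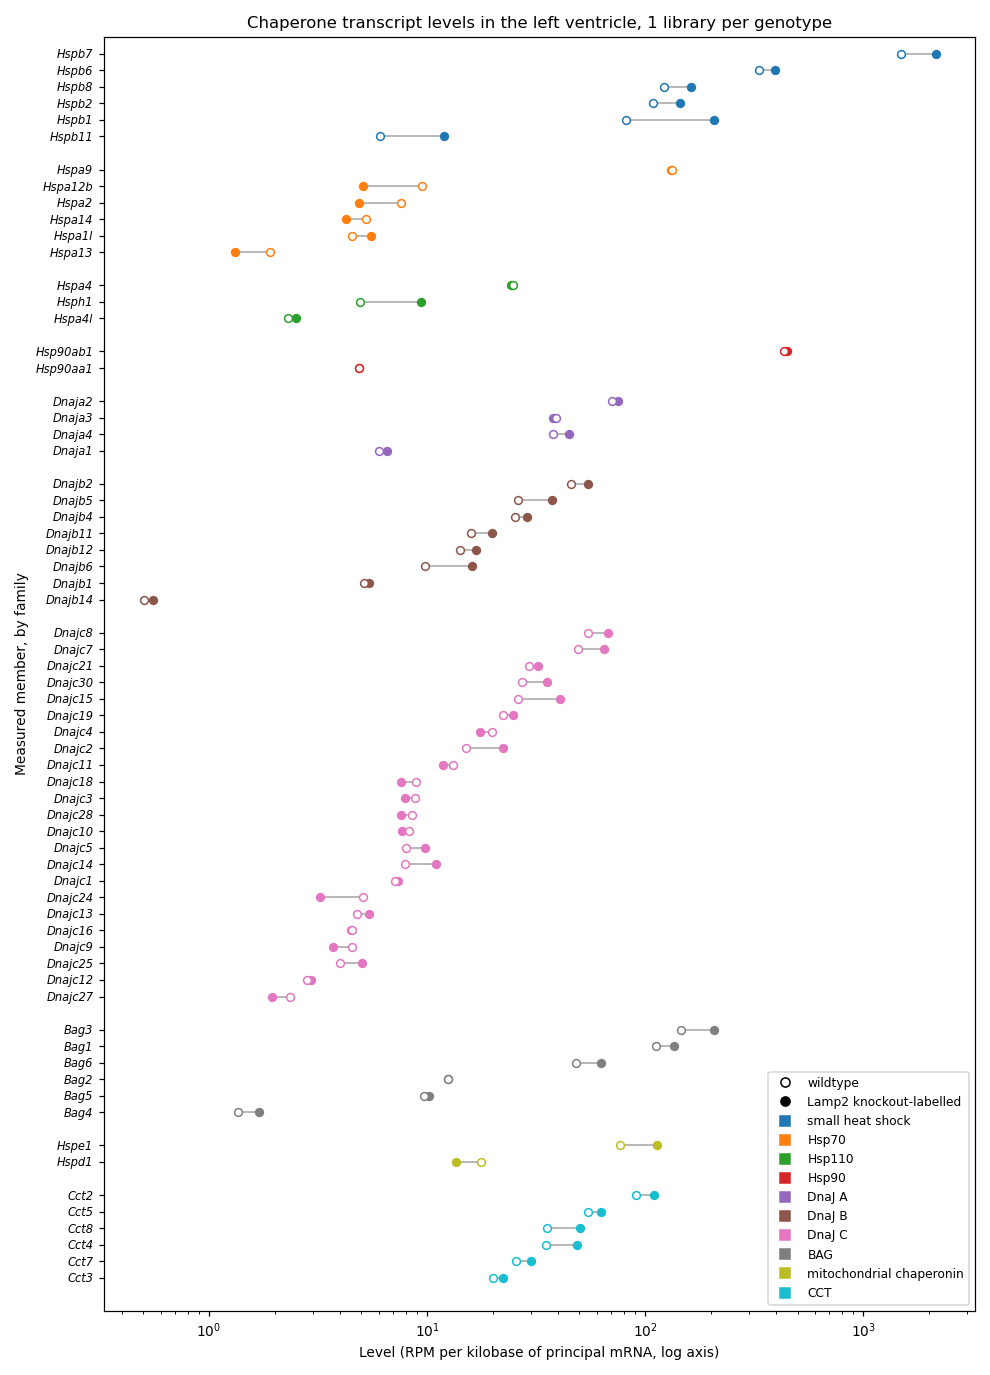
Level per kilobase of principal mRNA (log axis) of the 66 measured members with a gene model, grouped by family, in the wildtype (open circles) and the knockout-labelled library (filled circles). Hspb7, at 1496 and 2147 RPM per kilobase, lies to the right of all other members, and all 6 measured small heat shock genes have the filled circle to the right.

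The Hsp70 family, without the Hsp110 genes, was the only family with a median below 0 on the deposited scale. Among the 6 measured, 5 lay below 0 in log2 ratio under each of the 4 scalings. As deposited, 3957 of all 10209 measured genes lay below 0. The family had a median of −0.37, and −0.47 to −0.53 under the rescalings. Its most abundant member was nearly equal: Hspa9, the mitochondrial Hsp70 that pulls proteins through the import channel, had 3396 and 3530 reads, 404 and 402 RPM, a ratio of 0.996 (0.950 to 1.04), with an interval below 1 under each rescaling. The members with lower ratios were therefore the less abundant ones.

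Hspa12b, a distant Hsp70 relative found mainly in endothelial cells, had the lowest ratio of all measured members. It had 271 reads (32.2 RPM) in the wildtype and 153 (17.4 RPM) in the knockout-labelled library, a ratio of 0.541 (0.441 to 0.662). On the reduced total the ratio was 0.472 and the gene passed the 2-fold rule. Of 4 endothelial markers, all were present in both libraries, with ratios from 0.857 to 1.42 and a summed level of 490 and 515 RPM. Hspa2, best known from the testis, had 161 and 108 reads, a ratio of 0.643 (0.499 to 0.826). Hspa13, an Hsp70-like protein of the endoplasmic reticulum, had 68 and 49 reads, and Hspa14, a partner of ribosomes, had 79 and 67, and both intervals include 1, though that of Hspa13 lies below 1 under each rescaling and that of Hspa14 on the reduced total.

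Hspa1l had 94 and 120 reads and was the one measured Hsp70 gene above 0. Its ratio of 1.22 has an interval that includes 1, and 71.9% of its exonic bases lie under an opposite-strand transcript. The left-out Hspa8, the constitutive Hsp70 of the cytosol, stood at 99.2 and 152 RPM, a ratio of 1.53 (1.40 to 1.67). Of its mRNA windows, 74.9% occur in other annotated genes.

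The Hsp110 genes encode exchange factors that release ADP from Hsp70, and they differed among themselves. Hsph1, the heat-inducible member, had 158 reads (18.8 RPM) in the wildtype and 312 (35.6 RPM) in the knockout-labelled library, a ratio of 1.89 (1.56 to 2.31). Its log2 ratio of 0.89 lies just under the 2-fold rule. Hspa4, the most abundant of the 3, stood at 114 and 112 RPM, and Hspa4l at 21.9 and 23.8 RPM, both with intervals that include 1. Under each rescaling the interval of Hspa4 lies below 1, at 0.826 to 0.988 after division by the median ratio. Reads of Hsph1 relative to Hspa4 gave a ratio of ratios of 1.93 (1.56 to 2.40). None of the windows of the Hsph1 mRNA occurs in another annotated gene.

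J-proteins carry unfolded proteins to Hsp70 and start its ATP cycle. Of 44 members in classes A, B and C, 35 were measured, and none was 2-fold apart. Class A genes encode the general-purpose J-proteins and lay close to 1. Dnaja2, the most abundant of them, had 1740 and 1934 reads (207 and 220.4 RPM), Dnaja3, a J-protein of mitochondria, 866 and 879 reads, and Dnaja1 285 and 325 reads, all with intervals that include 1. That of Dnaja3 lies below 1 under each rescaling, and that of Dnaja2 on the reduced total. Dnaja4 stood at 114 and 134 RPM, a ratio of 1.18 (1.08 to 1.28), and 44.1% of its exonic bases lie under Wdr61 on the other strand. Its interval includes 1 under each rescaling.

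All 8 measured class B genes had a log2 ratio above 0 on the deposited scale, 7 after division by the median ratio and 5 on the reduced total. Of all measured genes, 61.2%, 49.99% and 42.9% lay above 0 under the same scalings. Of the class B intervals, 6 lay wholly above 1 as deposited (against 3570 of all 10209 measured genes) and 2 under each rescaling. The highest ratio was that of Dnajb6, whose product keeps aggregation-prone proteins soluble and is mutated in an inherited muscle disease. It had 132 reads (15.7 RPM) in the wildtype and 227 (25.9 RPM) in the knockout-labelled library, a ratio of 1.65 (1.32 to 2.06), with 35.9% of its mRNA windows in other annotated genes. Dnajb5 stood at 86.7 and 123 RPM, a ratio of 1.42 (1.30 to 1.57). Per kilobase the most abundant class B gene was Dnajb2, a J-protein with ubiquitin-binding motifs, at 46.0 and 54.9 RPM per kilobase. Dnajb4 stood at 62.3 and 71.1 RPM, Dnajb12, which sits in the endoplasmic reticulum membrane, at 43.6 and 51.3 RPM, and Dnajb11, of the reticulum lumen, at 39.8 and 49.7 RPM.

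Class C holds J-proteins with specialised sites of action, and these were split. Of 23 measured, 13 had a log2 ratio above 0 and 10 below on the deposited scale. On that scale 61.2% of all measured genes lay above 0. The class C median of 0.049 turned to between −0.056 and −0.13 under the rescalings. Dnajc15, a J-protein of the mitochondrial inner membrane, was highest with 1362 reads (162 RPM) in the wildtype and 2222 (253 RPM) in the knockout-labelled library. Its ratio was 1.56 (1.46 to 1.67), and 1.37 to 1.44 under the rescalings. Other mitochondrial members did not follow it as a block: Dnajc30 stood at 45.4 and 58.8 RPM, Dnajc19, of the protein import motor, at 14.7 and 16.4 RPM, and Dnajc11, of the inner membrane contact sites, at 41.4 and 37.2 RPM. The intervals of Dnajc19 and Dnajc11 include 1, but that of Dnajc11 lies below 1 under each rescaling, at 0.710 to 0.966 after division by the median ratio.

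Dnajc2, which forms a ribosome-bound chaperone pair with the Hspa14 protein, had 272 and 416 reads, a ratio of 1.47 (1.26 to 1.71). Its partner Hspa14 had a ratio of 0.813 (0.578 to 1.14). Dnajc7, which binds both Hsp70 and Hsp90, stood at 115 and 151 RPM, a ratio of 1.31 (1.21 to 1.43). Dnajc8, of the splicing machinery, was the most abundant class C gene per kilobase, at 54.7 and 67.7 RPM per kilobase. Dnajc21, a factor of ribosome assembly, ranked next after Dnajc7 in the wildtype, with 511 and 583 reads (60.8 and 66.4 RPM) and an interval that includes 1.

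At the lower end of class C stood Dnajc24, a factor of diphthamide synthesis, with 51 and 34 reads, a ratio of 0.639 (0.401 to 1.01). On the deposited scale the only class C gene whose interval lay below 1 was Dnajc18, with 385 and 343 reads and a ratio of 0.854 (0.736 to 0.990). The J-proteins of the endoplasmic reticulum Dnajc3 (0.896) and Dnajc10 (0.921) had ratios below 1 with intervals that include it. After division by the median ratio, 5 class C intervals lay below 1 (Dnajc3, Dnajc11, Dnajc18, Dnajc24 and Dnajc28), and 8 did on the reduced total, Dnajc10 among them.

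BAG genes are named for a shared domain, through which most of their proteins bind Hsp70 as exchange factors. All 6 were measured and had a log2 ratio above 0 on the deposited scale, and 4 of 6 under each rescaling. Of all measured genes, 61.2% lay above 0 as deposited and 42.9% to 49.99% under the rescalings. Bag3, the muscle member that couples chaperones to autophagy, had 3146 reads (374 RPM) in the wildtype and 4636 (528 RPM) in the knockout-labelled library, a ratio of 1.41 (1.35 to 1.48). After division by the median ratio it was 1.30 (1.24 to 1.36). Reads of Bag3 relative to those of its partner Hspb8 gave a ratio of ratios of 1.06 (0.980 to 1.14), which includes 1.

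Bag6, which guards membrane proteins before insertion, stood at 187 and 241 RPM, a ratio of 1.29 (1.21 to 1.38). Bag1 stood at 119 and 145 RPM, a ratio of 1.21 (1.11 to 1.32), and per kilobase it ranked just below Bag3 in the family, at 112 and 135 RPM per kilobase. Bag2, Bag4 and Bag5 had 195, 56 and 174 wildtype reads against 204, 73 and 192, and their intervals include 1. The ratio of Bag4, 1.25 (0.870 to 1.80), was no smaller than that of Bag1 but rests on few reads. On the reduced total the interval of Bag1 includes 1 (0.972 to 1.15).

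The Hsp90 genes of the cytosol lay next to 1. Hsp90ab1, the constitutive form, was the second member by level per kilobase, with 9196 and 9924 reads (1093 and 1131 RPM). Its ratio was 1.03 (1.01 to 1.06) as deposited and 0.954 after division by the median ratio, so its side of 1 depends on the scaling. Hsp90aa1, the inducible form, had 135 and 141 reads, a ratio of 1.001 (0.785 to 1.28). Of its mRNA windows, 58.3% occur in other annotated genes, so its level may be understated or overstated. Reads of the inducible relative to the constitutive form gave a ratio of ratios of 0.968 (0.758 to 1.24), which includes 1.

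Hspd1 and Hspe1 encode the barrel and the lid of the mitochondrial chaperonin, lie head to head on chromosome 1, and went in opposite directions. Hspe1, the lid, had 498 reads (59.2 RPM) in the wildtype and 773 (88.1 RPM) in the knockout-labelled library, a ratio of 1.49 (1.33 to 1.67). Hspd1, the barrel, had 361 reads (42.9 RPM) and 288 (32.8 RPM), a ratio of 0.765 (0.653 to 0.895). Both kept their side of 1 under each rescaling, at 1.30 to 1.37 for Hspe1 and 0.668 to 0.705 for Hspd1. Reads of Hspe1 per read of Hspd1 were 1.38 (wildtype) and 2.68 (knockout-labelled), a ratio of ratios of 1.94 (1.60 to 2.37), which is free of the scaling. Of their mRNA windows, 34.2% and 44.1% also occur in other annotated genes, among them the pseudogene Hspd1-ps3, and the part of such reads was not tested.

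CCT genes encode the subunits of the ring that folds actin and tubulin. All 7 measured subunits had a log2 ratio above 0 on the deposited scale and after division by the median ratio or the trimmed mean. On the reduced total 6 did. Of all measured genes, 61.2% lay above 0 as deposited, 49.99% after division by the median ratio and 42.9% on the reduced total. The median was 0.28 as deposited, 0.16 after division by the median ratio and 0.082 under the last scaling. Intervals wholly above 1 numbered 6, 4 and 3 under the same 3 scalings. As deposited, 3570 of all 10209 measured genes had such an interval. Ratios ran from 1.11 (0.954 to 1.29) for Cct3 to 1.48 (1.31 to 1.67) for Cct6a. None of the subunits was 1.5-fold apart.

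Cct6a has no coding model in the annotation used. By level per kilobase, Cct2 was the highest of the others at 90.6 and 109.9 RPM per kilobase and Cct3 the lowest at 20.1 and 22.3. Cct8 had 714 and 1054 reads, a ratio of 1.42 (1.29 to 1.56), and Cct4 had 732 and 1058, a ratio of 1.39 (1.26 to 1.52). Cct5, next after Cct2 by level per kilobase, had 853 and 1023 reads (101 and 117 RPM), a ratio of 1.15 (1.05 to 1.26). Under each rescaling the interval of Cct5 includes 1. Tcp1, the remaining subunit, carries a symbol outside the rule and stood at 79.4 and 85.3 RPM, a ratio of 1.07 (0.966 to 1.19). The testis form Cct6b had 2 and 0 reads.

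**Figure D4:**
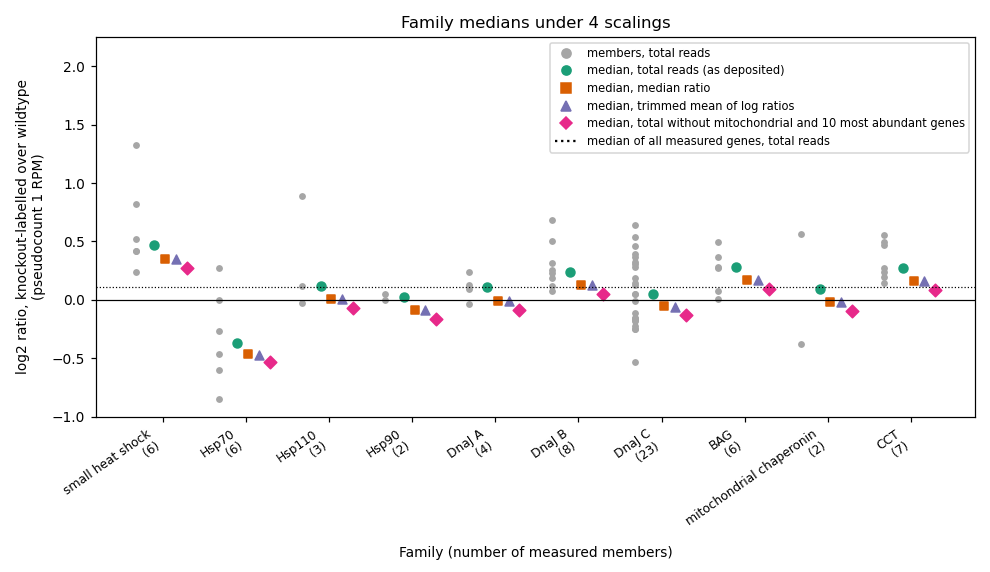
Log2 ratio (1 RPM added) of the measured members of each family as grey points, with the family median under 4 scalings as coloured symbols; the dotted line is the median of all measured genes on the deposited scale. The small heat shock, CCT, BAG and DnaJ B medians lie above 0 and the Hsp70 median below 0 under all 4 scalings, whereas the medians of the other families change side.

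Set side by side, the families spanned log2 medians from −0.37 (Hsp70, 6 measured) to 0.47 (small heat shock, 6 measured). The Hsp70 median leaves out Hspa8, at a ratio of 1.53, and was −0.25 with no filter on low values. BAG, CCT and DnaJ B lay between at 0.28, 0.28 and 0.24. DnaJ A, Hsp110, the mitochondrial chaperonin, DnaJ C and Hsp90 lay at 0.11, 0.12, 0.094, 0.049 and 0.025, at or under the median of all measured genes apart from Hsp110. Genes of a family are not replicates, so no test was made between families.

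Other genes of the chaperone network, from a list of 48 of which 47 were in the table and 43 measured, were also mostly within 1.5-fold. The median was 0.10, against 0.11 for all measured genes, and 29 of 43 lay above 0 (67.4%, against 61.2%). At least 2-fold higher was 1 (2.33%, against 3.35%), and none was 2-fold lower (against 2.37%). These shares are near those of all measured genes. The gene past the rule was Fkbp5, an Hsp90 cochaperone and a known target of the glucocorticoid receptor. It had 409 reads (48.6 RPM) in the wildtype and 1941 (221 RPM) in the knockout-labelled library, a ratio of 4.55 (4.09 to 5.07). Its paralogue Fkbp4 stood at 101 and 100.3 RPM, a ratio of 0.991 (0.901 to 1.09).

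At the 1.5-fold threshold 5 of the list were higher (11.6%), a share near that of all measured genes (12.8%), and 2 were lower (4.65%, against 7.30%). Besides Fkbp5 these were Flnc, which encodes the muscle filamin C that Bag3 helps to turn over, at 374 and 649 RPM (ratio 1.73, 1.66 to 1.81). The prefoldin subunit gene Pfdn2 stood at 174 and 283 RPM, a ratio of 1.63 (1.52 to 1.74), with 27.6% of its exonic bases under Klhdc9 on the other strand. Pfdn1 and Pfdn5, of the same complex that delivers actin to CCT, had ratios of 1.05 and 0.953 with intervals that include 1. The mitochondrial factors Grpel2, an exchange factor of the mitochondrial Hsp70, and Hscb, a J-protein of iron-sulfur cluster assembly, had ratios of 1.69 (1.23 to 2.34) and 1.62 (1.17 to 2.26) from 64 and 61 wildtype reads.

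The 2 lower genes were Synpo2, a Z-disc protein that works with Bag3, at 133 and 81.4 RPM (ratio 0.613, 0.558 to 0.674), and Hsp90b1, the Hsp90 of the endoplasmic reticulum, at 244 and 159 RPM (ratio 0.653, 0.610 to 0.699). Serpinh1, the collagen chaperone, stood at 89.8 and 62.7 RPM, a ratio of 0.698 (0.625 to 0.780). Of 5 fibroblast markers, 4 were lower in the knockout-labelled library, none was at 0 and the summed level was 496 and 451 RPM. Col3a1, Lum and Col1a1 had ratios of 0.175, 0.192 and 0.228. Pdgfra, at 0.982 (0.848 to 1.14), and Dcn, at 1.04 (0.989 to 1.09), had intervals that include 1. The part of these marker differences in the Serpinh1 value was not tested. The Hsp70 and Hsp90 adaptor gene Stip1 stood at 46.5 and 68.3 RPM, a ratio of 1.47 (1.29 to 1.67), and Stub1, the ubiquitin ligase that tags chaperone clients, at 153 and 189 RPM, with 42.3% of its exonic bases under Jmjd8 on the other strand.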

How the data were processed

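Polyadenylated RNA of 1 wildtype and 1 Lamp2 knockout-labelled left ventricle was sequenced by the authors. The submitters' processing notes name STAR and, as builds, mm10 and GRCm38. Not given in the sources used here are the counting tool, annotation, strand use and handling of multiply matching reads. Per the file headers, the deposited table holds read counts per gene, and the deposited RPM values equal count over library total times 1000000 (largest difference 5e-05). The authors' deposited fold (a ratio) and the authors' deposited p-value were not used.

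Ratios carry exact conditional binomial (Clopper-Pearson) intervals. They cover counting error only, since no molecular identifiers mark independent molecules. Calls used log2 ratios with 1 RPM added, among genes with at least 5 RPM in either library. Intervals are widest for genes near 5 RPM. The minimum, the fold, the pseudocount and 3 rescalings were varied. Starts are the deposited starts plus 1. Lengths (APPRIS principal transcript), exon overlaps and shared 50-base windows of the longest coding transcript come from GENCODE M21 (GRCm38), which gave a model for 82 of 83 members, and promoters from RefSeq GRCm38.p6. Members and lists were chosen with earlier results of these data known. Named were the 2-fold members and the extremes and most abundant of each family, and of the other list Hsf1, Tcp1, Cryab and the largest ratios. 1 entry of the heat-inducible list is not reported here and was left out of its counts. Genes named beyond this were chosen after their values were seen. The calculation was tested on simulated counts. Python 3.11.15, numpy 2.4.6, pandas 2.3.3, scipy 1.17.1 and matplotlib 3.10.9 were used.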

Additional observations from a re-analysis of the deposited data

How the results depend on the processing

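No paired analysis was possible because each group held 1 library. With members called at 1.5-fold, 5 were higher and 2 lower, and at 3-fold 0 were higher. Leaving out members that share at least 20% of mRNA windows with other genes or of exonic bases with the other strand, an alternative chosen after seeing the data, left 0 higher, since it removes Hspb1. With a minimum of 1 RPM or no filter 1 member was lower (Hspb3), as was 1 (Hspa12b) on the reduced total, without mitochondrial rows and the top 10 genes. In the heat-inducible list 2 genes were higher at 1.5-fold and 0 at 3-fold. The other chaperone list had 5 higher and 2 lower at 1.5-fold. Of all genes, 1307 were higher and 745 lower at 1.5-fold, 87 and 46 at 3-fold, and 185 and 94 with the whole interval past 2-fold. The counts were 220 and 92 with a minimum of 20 RPM, 194 and 75 with 5 RPM added, and 215 and 375 on the reduced total. With a minimum of 1 RPM or no filter 397 were lower. Under division by the median ratio, by the trimmed mean of log ratios and the reduced total, the small heat shock median was 0.35, 0.35 and 0.27. Under the last, the DnaJ A median was −0.085 and the CCT median 0.082. Depth limits members near 5 RPM, such as Dnajb14 and Hspb11, most.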
